A study of Homo sapiens with 3 samples.

Results

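Cluster 2 is the group of cells that the deposited cell annotation places in cluster 2 of the Seurat clustering at its resolution of 0.8. It held 2038 of the 19237 annotated cells of CAMA-1 spheroids (10.6%). Of these, 2003 cells (98.3%) were of the ribociclib-resistant lineage, out of 13849 annotated resistant cells, and the remaining 35 were of the sensitive lineage. The results below describe the 2003 resistant cells against the resistant cells of clusters 0, 1, 5, 6 and 10, unless the sensitive cells are named.

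CAMA-1 is an established cell line of estrogen receptor-positive luminal breast cancer. The sensitive lineage was labeled with the yellow fluorescent transgene Venus (mVenus in the count tables), and the resistant line, obtained by prolonged culture in ribociclib (an inhibitor of the kinases CDK4 and CDK6), was labeled with the red transgene mCherry. Spheroids of 2000 plated cells were started as 100% sensitive, 50% sensitive or 0% sensitive, and every spheroid received 1 µM ribociclib, with harvest after 11 days. Each condition gave 1 library of 3′ single-cell RNA counted by unique molecular identifiers (UMIs), so no condition has a replicate, no untreated library was analysed here, and no test across samples was run. Lineage was read from the transgenes in the coculture, where every cell classed as resistant had at least 1 mCherry UMI, and from the library in the monocultures.

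A dividing cell copies its DNA in S phase, prepares for division in G2 and separates its chromosomes in mitosis (M). Entry into mitosis is driven by CDK1 with its partner cyclins A and B. Aurora and Polo-like kinases then build the spindle, kinetochores couple chromosomes to it, and the anaphase-promoting complex (APC/C) ends mitosis by marking securin and cyclin B for destruction. Most genes of this program are transcribed late in the cycle, through promoters that often hold CCAAT boxes bound by NF-Y and a cell cycle homology region (CHR) bound by the DREAM and MuvB complexes. CDK4 and CDK6, the targets of ribociclib, act earlier, where they phosphorylate RB1 and release E2F for entry into S phase.

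Promoters are shown for 5 of the genes that led cluster 2 because the letters marked in them were counted over all the genes called. Each is the 100 bases upstream of the annotated start on the strand of the gene, taken from a RefSeq promoter table (GRCh38.p14) and matched to a single place in GRCh37, the build of the counts. Capitals mark the CHR-type letters TTTGAA or TTCGAA and the letters CCAAT, on either strand (TTCAAA and ATTGG are their reverse forms), and neighboring matches may overlap. The windows lie at chr5:162887538-162887637 (+) for HMMR, chr16:23690110-23690209 (+) for PLK1, chr22:46692667-46692766 (+) for GTSE1, chr10:129924688-129924787 (−) for MKI67 and chr5:68462877-68462976 (+) for CCNB1.
HMMR: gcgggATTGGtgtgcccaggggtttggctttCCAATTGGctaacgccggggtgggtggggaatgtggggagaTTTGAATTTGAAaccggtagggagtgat
PLK1: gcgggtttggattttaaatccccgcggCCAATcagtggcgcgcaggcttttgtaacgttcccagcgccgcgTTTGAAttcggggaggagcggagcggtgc
GTSE1: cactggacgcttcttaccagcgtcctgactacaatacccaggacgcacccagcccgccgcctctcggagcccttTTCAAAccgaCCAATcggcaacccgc
MKI67: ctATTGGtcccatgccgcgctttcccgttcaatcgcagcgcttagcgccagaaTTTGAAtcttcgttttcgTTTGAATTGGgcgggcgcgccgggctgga
CCNB1: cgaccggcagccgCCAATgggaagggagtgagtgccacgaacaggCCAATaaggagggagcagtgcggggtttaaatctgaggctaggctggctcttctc

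HMMR, PLK1, GTSE1 and MKI67 held both kinds of letters in this window, whereas CCNB1 held 2 CCAAT matches and no match to TTTGAA or TTCGAA. No other form of the CHR was searched, so a gene without a match is not shown to lack a CHR. Within 250 bases, 5 of the 9 leading genes with a sequence (of the 12 with the highest ratios) held CHR-type letters and 8 held CCAAT. NUSAP1, CENPE, CCNB1 and CENPF held no match to TTTGAA or TTCGAA, and CENPE held no CCAAT match as well. Letters that match are a description of the sequence and do not show that a factor was bound.

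In both libraries cluster 2 was a cluster of G2M cells. By the deposited phase calls, 987 of 1005 resistant cells of the coculture (98.2%) and 977 of 998 of the monoculture (97.9%) were in G2M, 18 and 21 were in S, and none was in G1. The cluster took 16.0% of 6292 resistant cells in the coculture (15.1% to 16.9%, exact Clopper-Pearson interval) and 13.2% of 7557 in the monoculture (12.5% to 14%). All intervals are at 95% and cover counting error only. These shares rest on unlike definitions of a resistant cell, and with at least 2 mCherry UMIs asked of every cell in both libraries they were 18.7% (17.5% to 19.9%) and 17.7% (16.4% to 19.0%). 

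Cluster 2 did not hold every resistant G2M cell. Its share of them was 64.1% of 1540 in the coculture (61.6% to 66.5%) and 60.5% of 1614 in the monoculture (58.1% to 62.9%). Cluster 5 held the next most, 205 and 236 cells, followed by cluster 0 with 149 and 165. The other clusters had other phases, since cluster 0 was 83.7% and 80.7% G1, cluster 1 was 90.4% and 90.3% S, and cluster 10 was 93.8% and 96.6% S. Cluster 5 was 65.5% and 69.0% G1 with 28.5% and 24.0% G2M, and cluster 6 was mixed. The phase call reads genes that were also open to the clustering, so the phase make-up is a description of the cluster and not a finding independent of it.

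**Figure D1:**
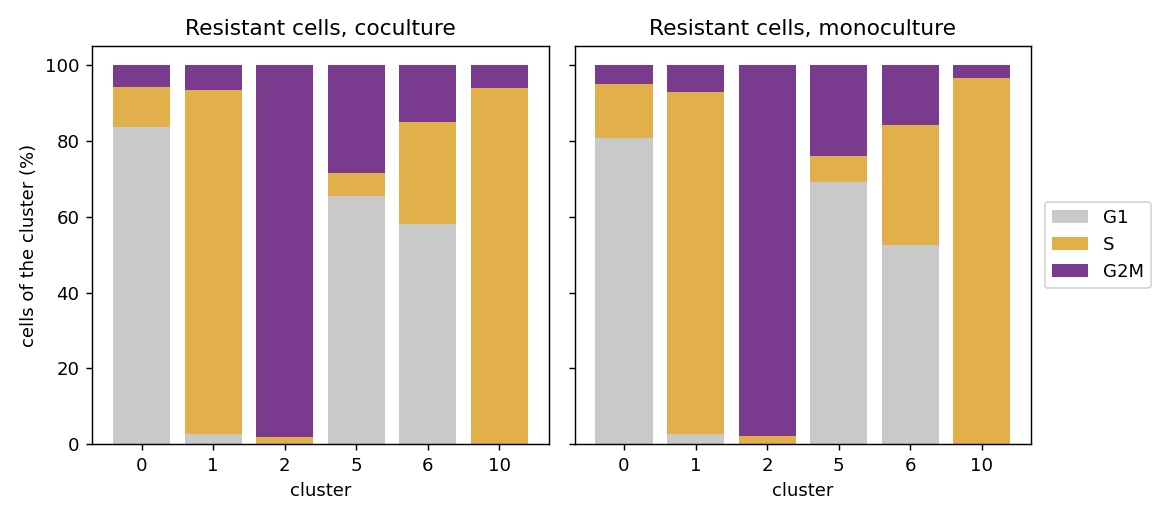
Percent of resistant cells in G1, S and G2M (y axis) in each of the 6 resistant clusters (x axis), coculture at left and monoculture at right. Cluster 2 is almost wholly G2M in both libraries (98.2% and 97.9%), while cluster 0 is mostly G1 and clusters 1 and 10 are mostly S.

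Cells of cluster 2 had a median of 35305 UMIs per cell in the coculture and 40520.5 in the monoculture, against 29279.5 and 34730 in cluster 0 and 35490 and 42695 in cluster 10. The median share of mitochondrial UMIs was 14% and 13.6%, against 16.2% and 16.9% in cluster 0 and 12.8% and 12.2% in cluster 10, so neither depth nor this share was particular to cluster 2. The median G2M score was 0.372 and 0.380 in cluster 2, whereas G2M cells of the other clusters had medians between 0.0185 and 0.208. A doublet score above 0.25 was given to 78 cells (7.76%) and 72 cells (7.21%) of cluster 2, against 1.66% to 5.56% and 0.676% to 5.25% in the other clusters. These cells were kept, and without them the share of cluster 2 was 15.4% and 12.7%. The coculture and resistant monoculture shared 17 cell barcodes, 2 of them in cluster 2 of both libraries. 

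The marker given for the cluster, MGP, did not set it apart. MGP encodes matrix Gla protein, a secreted inhibitor of mineralization. Its level, as CPM (the UMIs of a gene scaled by the total over the summed cells), was 5469 CPM in cluster 2 of the coculture and 5730 CPM in the monoculture, which placed cluster 2 the 4th of 6 in each library. Clusters 0, 1 and 5 were higher, at 6262 to 7405 CPM and 6493 to 7731 CPM. Clusters 6 and 10 were lower, at 989 to 1041 CPM and 1169 to 1423 CPM. Against the other 5 clusters summed, MGP was lower by a log2 ratio of -0.20 and -0.22, and with the 5 clusters given equal weight the mean ratio was 0.27. After each cell was thinned to 5000 UMIs the median cell of cluster 2 held 22 MGP UMIs (quartiles 8 to 40) in the coculture and 23 (9 to 43) in the monoculture. MGP was therefore abundant in cluster 2 as in most resistant cells, and the cluster is described by its phase and its leading genes.

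The luminal identity of the line was present in cluster 2. EPCAM was at 246 and 350 CPM, KRT8 at 1221 and 1524 CPM, GATA3 at 358 and 310 CPM and FOXA1 at 90.8 and 77.8 CPM in coculture and monoculture. ESR1, the estrogen receptor, was at 19.3 and 15.4 CPM. Stromal, leukocyte and basal markers were at or near 0, with no UMI of COL1A2, DCN, PTPRC or KRT5 in either library, which allows up to 0.0847 CPM and 0.0765 CPM, and with COL1A1 at 2.71 and 3.24 CPM. The resistant-lineage markers mCherry (98.5 and 74.9 CPM) and NME4 (217 and 266 CPM) were present and mVenus was at 0. The transgenes set the lineage class in the coculture, so their levels there are no independent reading. FABP7, a fatty acid-binding protein that marks the sensitive lineage, was at 12 CPM in the coculture and 0.510 CPM in the monoculture, and the part that free RNA of the sensitive cells had in this was not tested. Other markers of the sensitive lineage were present too. In resistant G2M cells of cluster 2 in the coculture, MUCL1 was at 279 CPM and STC2 at 24.3 CPM. LXN was at 19.4 CPM and SCIN at 14.5 CPM. All sensitive cells of that library had 1376, 44.1, 51.1 and 78.3 CPM of these genes.

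Genes were compared by the log2 ratio of CPM (with 1 CPM added), cluster 2 over the other 5 clusters summed. A gene was called when it was past 1.5-fold in the same direction in both libraries, among 4408 genes with at least 20 CPM on average over the 6 clusters. By this rule 190 genes were higher in cluster 2 (4.31%) and 16 were lower (0.363%), and no gene passed in opposite directions. The average takes in cluster 2 itself, which helps genes high there to enter and keeps out some genes low there. The balance of higher and lower calls is thus partly set by this filter. Of the higher genes, 87 passed 2-fold and 20 passed 4-fold. The median over all genes tested was 0.11, and 142 genes were higher and 37 lower after TMM scaling, which moved that median to 0.00. The libraries gave near-equal ratios, with a median absolute difference of 0.044. The clusters were drawn on these same genes, so the calls describe the cluster and are no test of it.

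**Figure D2:**
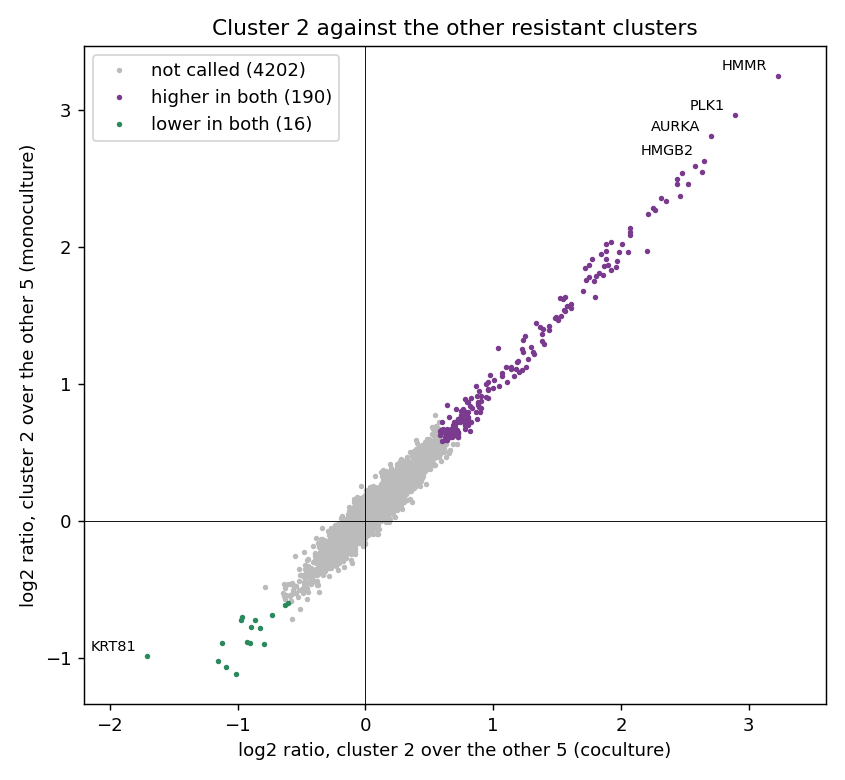
Log2 ratio of CPM, cluster 2 over the other 5 resistant clusters, in the coculture (x axis) and the monoculture (y axis) for the 4408 genes tested. The 190 called higher (purple) run to 3.2 in both libraries at HMMR, while the 16 called lower (green) are led by KRT81, with a mean of -1.35.

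HMMR had the highest ratio. It encodes the hyaluronan-mediated motility receptor, a protein that also acts at the spindle poles. Its level was 168 CPM in cluster 2 against 17.0 CPM in the other clusters of the coculture, and 176 against 17.6 CPM in the monoculture, a mean log2 ratio of 3.24 (9.44-fold). PLK1, the Polo-like kinase of mitotic entry, was at 122 against 15.5 CPM and 135 against 16.4 CPM (log2 ratio 2.93). AURKA, the Aurora kinase of the spindle poles, was at 332 against 50.2 CPM and 324 against 45.4 CPM (2.76). Cluster 2 was thus well above the remaining clusters for each of these genes in both libraries.

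The cyclins and CDK1 followed. CCNB1, cyclin B1, was at 468 against 83.3 CPM and 517 against 88.1 CPM (log2 ratio 2.51), and CCNA2, cyclin A2, had a ratio of 2.27. CDK1, their kinase, was at 134 against 31.1 CPM and 127 against 29.1 CPM (2.08). Of 10 genes tested among cyclins, CDK1 and its switches, 8 were called higher and none lower, with a median of 1.44. WEE1 and PKMYT1, the kinases that hold CDK1 inactive, were the members not called, at 0.62 and 0.43. This list and the mitotic lists below were drawn up after values were seen. They share genes with each other and with the G2M list that the phase call reads. Their counts describe a cluster of G2M cells and are no separate findings.

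All 9 mitotic kinases and partners tested were called higher (median 2.02), among them NEK2, a centrosome kinase, at 2.23. Kinesins and spindle proteins were called higher in 16 of 17 genes (median 1.83), including NUSAP1 at 2.59 and DLGAP5 at 2.34, both microtubule-binding. Cytokinesis proteins were called higher in 9 of 13 (1.77), including PRC1, the bundler of the central spindle, at 2.01 and CEP55, a midbody protein, at 1.94. None of these 3 groups had a gene called lower. 

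Chromosome proteins were higher too, with smaller medians. Condensin, cohesin and other chromosome proteins were called higher in 15 of 18 genes (median 1.14). TOP2A, the topoisomerase that untangles sister DNA, was at 630 against 115 CPM and 524 against 94.3 CPM (log2 ratio 2.45). MKI67, which coats mitotic chromosomes, was at 210 against 37.3 CPM and 207 against 39.1 CPM (2.42), and HMGB2, a DNA-bending protein, was at 272 against 42.4 CPM and 281 against 44.4 CPM (2.64). Centromere and kinetochore proteins were called higher in 15 of 21 genes (median 0.79), led by CENPE at 2.58, CENPF at 2.34 and NUF2 at 2.09. 

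The checkpoint and APC/C genes were split. Of 17 tested, 7 were called higher with a median of 0.20, near that of all genes. UBE2C, the ubiquitin-conjugating enzyme of the APC/C, was at 466 against 85.3 CPM and 575 against 101 CPM (log2 ratio 2.47), and the securin PTTG1 and the activator CDC20 had ratios of 2.09 and 1.84. Core subunits of the complex, such as ANAPC5 at 0.16 and CDC16 at 0.11, were not called. Of the 7 tubulins tested 5 were called higher, TUBA1C at 1.28 and TUBA1B at 1.24 among them, although reads of such near-identical genes may have been split between copies.

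**Figure D3:**
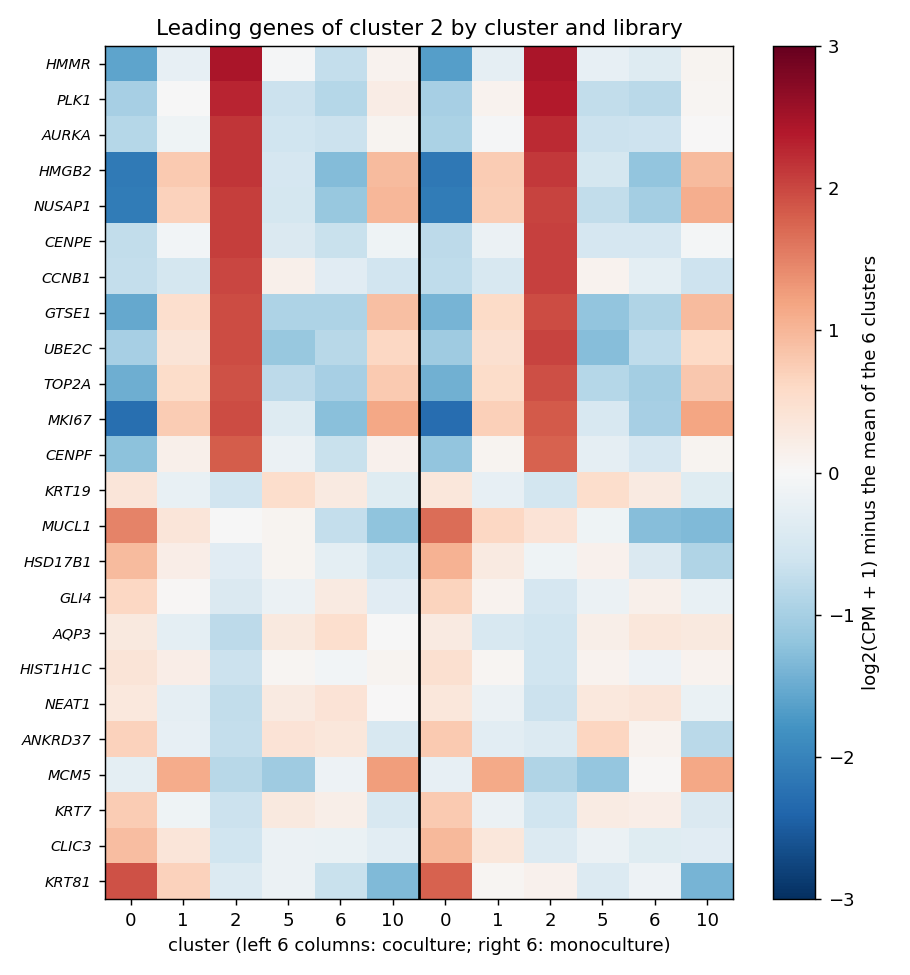
Log2(CPM + 1) of the 12 highest and 12 lowest called genes (rows), minus the mean of the 6 clusters in the same library, for each cluster in coculture (left) and monoculture (right). The 12 highest are darkest red in cluster 2 of both libraries, and HMGB2, NUSAP1, GTSE1, TOP2A and MKI67 are also above the mean in the S clusters 1 and 10.

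The standard G2M list that phase calls read had 39 genes tested, of which 37 were called higher and none lower (median 1.88). That list is also what the deposited phase reads, so its direction is fixed by the phase make-up. Among S-phase genes 7 of 27 were called higher and 2 lower (median 0.22). TYMS and RRM2, enzymes of nucleotide supply, were higher at 1.58 and 1.02. The S clusters were above cluster 2 for RRM2, with 69.5 and 77.5 CPM in cluster 1 and 106 and 120 CPM in cluster 10 against 48.4 and 49.8 CPM in cluster 2, and cluster 10 was slightly above it for TYMS. MCM5, a subunit of the replicative helicase, was lower at 18.3 against 38 CPM and 16.5 against 37.0 CPM (log2 ratio -1.07). The other S-phase gene called lower was UNG, a repair glycosylase, at -0.62.

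Set against single clusters, cluster 2 was nearest to the S clusters by genes called higher. It had 94 genes higher and 37 lower than cluster 1, 124 and 92 against cluster 10, 201 and 18 against cluster 5, 250 and 43 against cluster 6, and 409 and 51 against cluster 0. Cluster 2 was the highest of the 6 clusters in both libraries for 146 of the 190 genes, and the lowest for 11 of the 16.

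The distance from other G2M cells was smaller but remained. When only G2M cells were summed on both sides, 109 genes were higher (2.47%) and 9 lower (0.204%), and 102 of the 190 and 5 of the 16 were shared with the calls over all cells. PLK1 had a ratio of 2.04 in this setting, AURKA 1.96, UBE2C 1.94, CDK1 1.90, HMMR 1.62 and CCNB1 1.34. PTTG1, at 2.09 over all cells, was at 0.63, and DLGAP5 was at 1.02. The G2M list had a median of 1.07 with 32 of 39 called higher. Cells called G2M outside cluster 2 were lower in most of these genes than the G2M cells inside it. The clustering was drawn on these genes, so this describes how it divided the G2M cells. Their median G2M score was 0.0185 and 0.0229 in cluster 0, against 0.373 and 0.385 in cluster 2. With phase called anew on cells thinned to 5000 UMIs, G2M cells of cluster 0 fell from 149 and 165 to 39 and 56. Those of cluster 5 fell from 205 and 236 to 105 and 150, and cluster 2 had 926 and 905.

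Detection in single cells was also described at equal depth. With each cell thinned to 5000 UMIs, HMMR was detected in 55.6% and 58.3% of cluster 2 cells (coculture and monoculture), in 18.9% and 23.1% of G2M cells of the other 5 clusters, and in 3.58% and 3.44% of G1 cells of cluster 0, which serve as the background. PLK1 was detected in 45.4% and 45.7%, 12.8% and 13.3%, and 4.43% and 4.29% of the same cells. CCNB1 was found more widely, in 85.8% and 87.6%, 53% and 57.7%, and 27% and 28.4%. S cells of cluster 1 had HMMR in 10.2% and 11.3%, PLK1 in 12.4% and 12.8% and CCNB1 in 30.7% and 32.4%. TOP2A was found in 64.0% and 60.1% of them, above the other G2M cells at 56.5% and 53.5%. UBE2C was found in 50.6% and 56.7%, also above the other G2M cells at 39.4% and 45.3%. Cluster 2 was at 91.8% and 88.0% for TOP2A and at 80.8% and 85.1% for UBE2C. Of 10 mitotic genes the median cluster 2 cell had 7 detected (quartiles 6 and 8), against 3 in the other G2M cells. At least 5 of the 10 were found in 90.3% and 90.0% of cluster 2 cells. The shares were 19.3% and 26.3% in the other G2M cells and 0.943% and 0.498% in the G1 cells of cluster 0. HMMR, PLK1, CCNB1, TOP2A and UBE2C were called higher in cluster 2 from these same cells. Their detection, and the count over the 10 mitotic genes, therefore describe the cluster and are no separate finding.

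The 16 genes lower in cluster 2 were spread over several functions, and 10 of them were also called with the 5 other clusters weighted equally. KRT81, a hair-type keratin, was at 22.7 against 76.5 CPM in the coculture and 38.3 against 76.7 CPM in the monoculture (mean log2 ratio -1.35). KRT81 was by far highest in cluster 0, at 118 and 121 CPM, whereas clusters 1, 5, 6 and 10 of the monoculture were below cluster 2, at 12.5 to 36.2 CPM. With the 5 clusters given equal weight its mean ratio was -0.60, and the monoculture was no longer past 1.5-fold, so the call was lost. KRT7, a simple-epithelium keratin, was at 414 against 886 CPM and 372 against 778 CPM (-1.08), and KRT19 was at 1578 against 2802 CPM and 2009 against 3441 CPM (-0.80). These 3 were the genes called lower among 16 keratin and adhesion genes tested (median -0.13), and none of the 16 was called higher. NEAT1, a nuclear-retained long RNA, was at 1781 against 3388 CPM and 1464 against 2688 CPM (-0.90). CLIC3, an intracellular chloride channel protein, was at -1.09, and ANKRD37, a hypoxia-inducible gene, at -1.01.

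HSD17B1, the enzyme that reduces estrone to estradiol, was lower in cluster 2. Its level was 21.5 against 41.0 CPM in the coculture and 23.7 against 41.2 CPM in the monoculture (log2 ratio -0.83). By cluster it was highest in cluster 0, at 53.6 and 54.6 CPM, and between 28.6 and 31.5 CPM in clusters 1 and 5, while clusters 6 and 10 were at 13.5 to 22.2 CPM. Among G2M cells only the ratio was -0.31, and with equal weights of the 5 clusters it was -0.40, neither past 1.5-fold. It was the 1 gene called of 8 estradiol and steroid enzymes tested (median -0.24). MUCL1, a secreted mammary product that is also a marker of the sensitive lineage, was at 281 against 550 CPM and 191 against 310 CPM (-0.83). With equal weights the MUCL1 ratio was -0.14, since clusters 6 and 10 were below cluster 2 in both libraries and cluster 0 was highest, at 804 and 458 CPM.

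**Figure D4:**
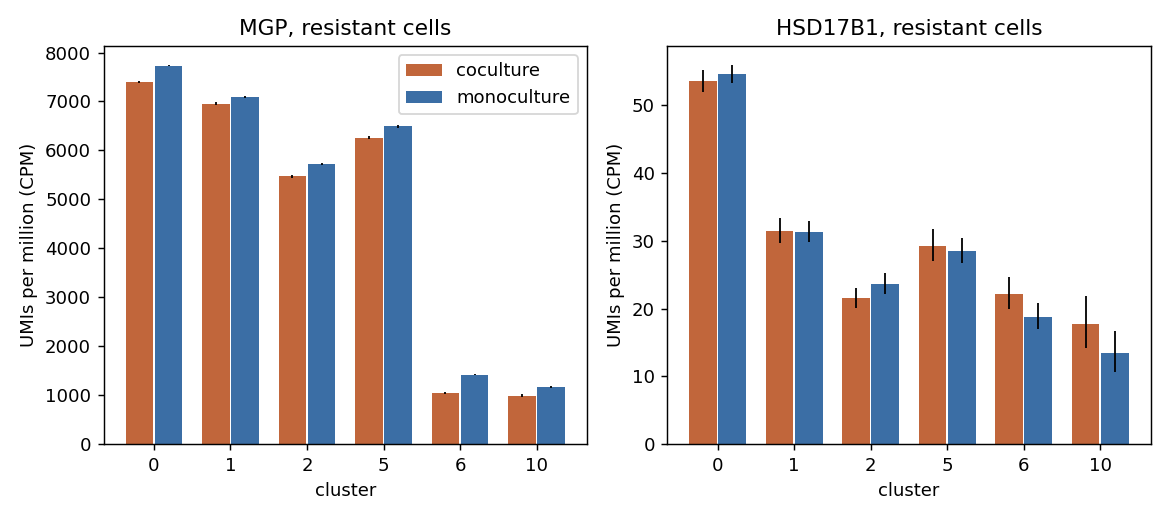
CPM of MGP (left) and HSD17B1 (right) in each resistant cluster, coculture in orange and monoculture in blue, with exact Poisson intervals for counting error. Cluster 2 is the 4th of 6 for MGP in each library, and its HSD17B1 level is below those of clusters 0, 1 and 5.

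Of the drug target and its partners, CDK4 and cyclin D1 were not called. CDK4 was at 125 against 104 CPM and 132 against 108 CPM (log2 ratio 0.28). CCND1, cyclin D1, was at 1461 against 1566 CPM and 1575 against 1711 CPM (-0.11). RB1, under the level asked for a call, was at 25 against 20.5 CPM and 19.4 against 15.1 CPM (0.31). E2F1 was at -0.46 and CDKN2A, a CDK4/6 inhibitor, at 0.50, also within 1.5-fold, and CDK6 had 2 and 1 UMIs in cluster 2. CCNE1 and CCNE2, the E cyclins of S-phase entry, were lower past 1.5-fold in both libraries but under the level asked for a call, CCNE2 at 5.37 against 11.9 CPM and 4.49 against 8.52 CPM and CCNE1 at 9.43 against 16.8 CPM and 9.69 against 17.2 CPM. Among G2M cells only the ratio of CCNE2 was 0.21, in the other direction, and that of CCNE1 was -0.42.

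Of the stress lists, metallothioneins had 1 of 3 genes called higher and the ATF4 amino acid stress genes 1 of 16, while none of 17 unfolded protein response genes, 6 p53 targets and 15 hypoxia-induced genes was. Over all genes tested 4.31% were called higher, so counts this small in short lists are no result about these lists. MT2A, a metal-binding metallothionein, had a ratio of 1.72, with 1183 and 893 CPM in cluster 2, 944 and 782 CPM in cluster 5 and 142 and 117 CPM in cluster 0. Among G2M cells only its ratio was 0.73. Heat shock genes were called higher in 5 of 17 (median 0.44), including HSPA1B at 0.76, DNAJA1 at 0.75 and HSPH1 at 0.74, and none of the 17 was called among G2M cells only. Of 41 lists described in all, 20 had no gene called, and their medians ran from -0.26 to 0.28.

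The CHR-type letters were found more often upstream of the genes higher in cluster 2. Within 250 bases before the start, 50 of 158 called genes with a sequence (31.6%) held TTTGAA or TTCGAA on either strand, against 330 of 3623 genes tested (9.11%) and 14.6% of all promoters in the table. CCAAT on either strand was held by 96 (60.8%) against 1357 (37.5%), and both by 43 (27.2%) against 151 (4.17%). Among genes also called higher in G2M cells only, 35 of 85 (41.2%) held CHR-type letters. These shares are a description and were not tested.

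Cells inside cluster 2 were not alike. Clusters 6 and 10 differed from clusters 0 and 1 by a shared panel of 62 higher and 42 lower genes (past 1.5-fold for 6 over 0 and for 10 over 1 in both libraries, MGP and the transgenes left out), a panel chosen after its values were seen. Each cell was scored by the log2 ratio of its summed UMIs in the 62 genes to those in the 42, with 1 UMI added to each. A score of at least 1.5 was found in 127 cells of cluster 2 in the coculture (12.6%, 10.6% to 14.9%) and 143 in the monoculture (14.3%, 12.2% to 16.7%), against 0.158% and 0.309% in cluster 0 and 52.7% and 64.4% in cluster 6. The choice of the panel sets the low share of cluster 0 and the high share of cluster 6. The panel also holds genes called in cluster 2. STMN1 and HMGN2, called higher, are on its high side, and KRT81 and MUCL1, called lower, on its low side. SNCG, called lower, is on its high side. Median scores were -0.03 and 0.22 in cluster 2 against -0.82 and -0.53 in cluster 0, so the threshold is not equally far from the center of each cluster. The score is a range and the threshold is not a boundary between types, since 66 and 68 cells of cluster 2 lay within 0.25 of it.

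**Figure D5:**
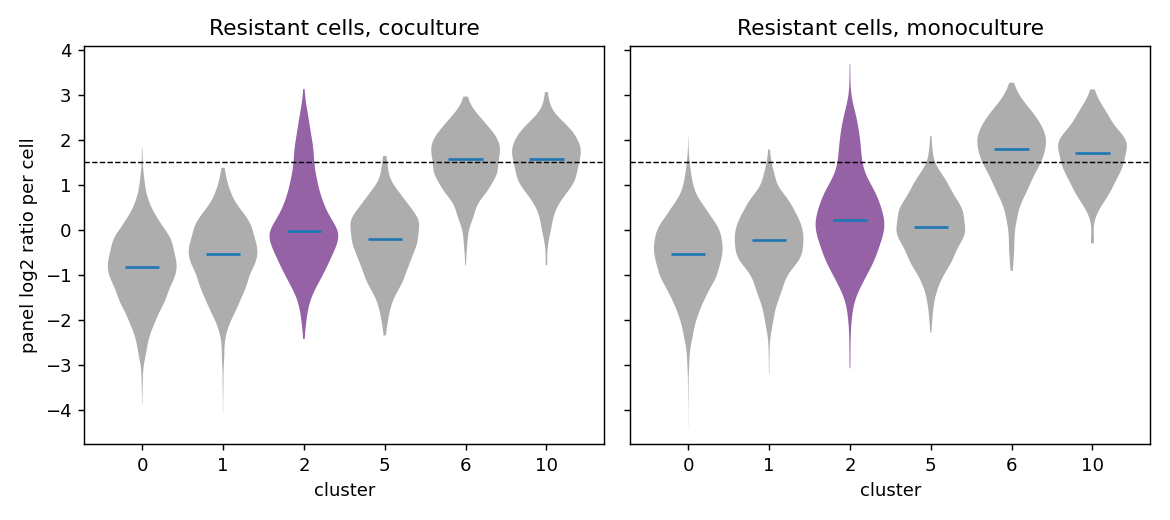
Panel score per cell, the log2 ratio of UMIs in 62 genes to UMIs in 42 genes (y axis), for the resistant cells of each cluster, with the median as a blue line and 1.5 as a dashed line. Cluster 2 (purple) is centered near 0, with a tail of 127 and 143 cells at or above 1.5 that reaches the range of clusters 6 and 10.

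The cells at or above 1.5 carried little MGP. MGP was at 883 CPM in them against 6141 CPM in the other cells of cluster 2 in the coculture, and 1181 against 6523 CPM in the monoculture. TFF3, a trefoil factor, was at 79.3 against 316 CPM and 92.0 against 428 CPM, and TFF1, an estrogen-induced trefoil factor, was at 1035 against 5513 CPM and 749 against 4908 CPM. HSD17B1 was at 14.6 against 22.6 CPM and 12.2 against 25.7 CPM. TFF3, TFF1 and HSD17B1 are among the 42 genes of the panel, so the score itself fixes their direction. MGP was left out of the panel by choice but is low in clusters 6 and 10 too, so its level here is no independent reading. The transgene mCherry, also left out of the panel, was at 169 against 88.1 CPM and 114 against 68.0 CPM. In the monoculture it was detected in 87.5% and 92.6% of cells of clusters 6 and 10. The shares in clusters 0 and 1 were 67.4% and 73.6%, so mCherry is no independent reading either. The mitotic genes HMMR and CCNB1 differed far less, with HMMR at 190 against 164 CPM and 184 against 175 CPM, and CCNB1 at 530 against 459 CPM and 523 against 516 CPM. The median UMI count was 36013 against 35277.5 and 42573 against 39948, so the depth of the groups was close. 

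Outside the panel, 14 of 4305 genes were higher (0.325%) and 21 lower (0.488%) in the cells at or above 1.5. The G2M list had a median of 0.13 over 38 genes outside the panel, with 1 called higher and 0 lower. On chromosome 1 lay 12 of the 14, and 45 of the 62 high genes of the panel itself (72.6%), against 10 of its 42 low genes (23.8%) and 493 of 4407 genes tested (11.2%). In the first 60 Mb of chromosome 1 (GRCh37), 125 of 131 genes outside the panel had a ratio above 0 (95.4%), with a median of 0.45. The rest of chromosome 1 had 201 of 307 above 0 (65.5%, median 0.07) and the other chromosomes 2246 of 3866 (58.1%, median 0.03). When cells were ranked only by panel genes off chromosome 1, 165 of 171 genes of that stretch were above 0 (96.5%, median 0.46), but these 171 include 40 high genes of the panel, and the cells were mostly the same, 112 of the 127 and 123 of the 143. The same 131 genes had a median of 0.53 in cluster 6 over cluster 0, against 0.08 for other genes. The panel was itself chosen by cluster 6 over cluster 0 and by cluster 10 over cluster 1. The cells were picked by that panel, and the stretch was set after values were seen. These shares and medians are therefore a description and no independent reading. The DNA content of the cells was not measured.

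Within cluster 2 the coculture and the monoculture were close. Of the genes tested, 33 were past 1.5-fold higher in the coculture (0.749%) and 5 lower (0.113%), with a median of -0.03, and the ratio compares 1 library with 1 library. SNHG25, a small nucleolar RNA host gene, was at 100 against 55.7 CPM (0.83), and NMT1, a myristoyltransferase, was at 185 against 104 CPM (0.82). NOP53, a ribosome biogenesis factor, was lower at 65.1 against 102 CPM (-0.63), and PIM3, a kinase, was lower at 50.6 against 77.7 CPM (-0.61). The same ratios in the other 5 clusters were 0.79 for SNHG25, 0.81 for NMT1, -0.62 for NOP53 and -0.48 for PIM3. KRT81 and AQP3, at lower levels, had lower ratios still, -0.73 and -0.72 in cluster 2 against -0.004 and -0.47 in the other 5 clusters. Of the 33 genes 27 were also past 1.5-fold in the other clusters, and of the 5 genes 1 was.

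Cluster 7 held G2M cells of the sensitive lineage in the same coculture, 331 in number, which gives the mitotic program of the other lineage in the same spheroids. Against them, the resistant G2M cells of cluster 2 had 116 genes higher (2.63%) and 74 lower (1.68%) past 1.5-fold, from 1 library. The genes tested were chosen by their average level in the resistant clusters, and the level in sensitive cells did not count. Genes high only in sensitive cells were thus kept out, such as FABP7 and SCIN, which were higher in the sensitive cells but not tested. The balance of higher and lower genes is therefore partly set by this filter. None of the 39 tested genes of the G2M list was past 1.5-fold in either direction (median 0.03). Both sides were cells called G2M, and that call reads this list, so closeness on it is largely set by the choice of cells. HMMR was at 169 CPM in both, PLK1 at 122 against 130 CPM and CCNB1 at 473 against 439 CPM. Genes past 1.5-fold included 2 markers of the resistant lineage, MGP at 5464 against 811 CPM (2.75) and NME4, a nucleoside diphosphate kinase, at 1.98. TFF3, another marker of that lineage, was at 284 against 296 CPM. HSD17B1 was at 21.5 against 7.43 CPM (1.41). All sensitive cells held HSD17B1 at 13.2 CPM in the coculture and 21.1 CPM in their monoculture. AGR2, a secretory-pathway disulfide isomerase, was lower at -1.55, and MUCL1 was lower at -1.60.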

How the data were processed

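The 3 libraries each held the cells of 1 spheroid condition. Per the submitters' processing notes the authors used Cell Ranger 3.0.2 and GRCh37, and they deposited raw UMI counts per gene and barcode. Their deposited annotation of kept cells gives UMI and gene counts, S and G2M scores, mitochondrial percent, and other entries such as phase, cluster and lineage class, made with Seurat. A further 9 columns of it were not used. The authors' limits were 3000 to 7000 genes, 2000 to 60000 UMIs and under 30% mitochondrial UMIs. Their methods also describe removal of cells with a scrublet score over 0.25 and a minimum of 2 mCherry or mVenus UMIs, but the annotation holds cells with fewer.

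Features that lacked a symbol held 0.523% to 0.591% of UMIs and did not enter the totals. UMIs were summed per library and cluster over resistant cells and expressed as CPM. Log2 ratios used a pseudocount of 1 CPM. Genes with at least 20 CPM were tested against a 1.5-fold limit in both libraries. CPM carry exact Poisson intervals and shares exact binomial intervals, and a count of 0 has a limit of 3 counts. As cells are not replicates and clusters were drawn on the same genes, no p-value is given. Doublets were scored anew with scrublet in scanpy 1.11.5, and cells that scored above 0.25 here were kept. Alternatives covered pseudocount, scaling, filters, fold, cells and cluster weights. For TMM scaling, edgeR 4.0.16 was run in R 4.3.3, and no model was fitted. Python 3.11.15 with scipy 1.17.1 and numpy 2.4.6 did the rest. The ratios were tested on simulated data.

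The members and gene lists were chosen with earlier results of these data known, and the mitotic lists, the panel and the chromosome 1 stretch after values were seen. Named genes are MGP, the 12 highest and 12 lowest called, up to 3 of each list described, the 5 highest and 5 lowest between the libraries, the transgenes and drug target genes. WEE1, PKMYT1, UNG, ANAPC5, CDC16, TFF1, AGR2 and the genes named among the further observations were chosen after their values were seen. The symbols HN1, UHRF1, CASP8AP2, SCGB2A4, CD24 and ACACA were not matched to a single feature.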

Additional observations from a re-analysis of the deposited data

How the results depend on the processing

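The share of cluster 2 moved to 18.7% in the coculture and 17.7% in the monoculture with at least 2 mCherry UMIs per cell. Its G2M share moved to 92.1% and 90.7% by own phase calls at 5000 UMIs (cluster 0 to 1.54% and 1.73%, cluster 5 to 14.6% and 15.2%, cluster 6 to 6.31% and 8.33%), and to 99.3% in the monoculture with at least 2 mCherry UMIs. The count of genes higher was 334 at a minimum of 5 CPM, 54 at 100 CPM, 87 at 2-fold, 117 with clusters weighted equally, 109 among G2M cells and 360 per cell without scaling to depth. The count lower was 55, 7 and 3 at those first 3 settings, 37 with TMM scaling, 27 in the coculture alone, 28 without mitochondrial and ribosomal genes, 9 among G2M cells and 10 per cell. MGP was at -0.32 with TMM scaling, 0.27 with equal weights, -0.18 with 2 mCherry UMIs, -0.22 without doublets, -0.28 without mitochondrial and ribosomal genes, -0.19 among G2M cells and -0.037 per cell. The median of the G2M list was 1.61 with a pseudocount of 10 CPM, 1.77 with TMM, 1.07 among G2M cells and 2.05 per cell. That of the S list was 0.17, 0.11, 0.51 and 0.38 in the same order. With a pseudocount of 10 CPM, 16 genes were higher and 0 lower in the coculture within cluster 2. The causes were not tested. None of the 24 highest and lowest genes changed sign in the 11 settings run for them, but calls were lost: of the 190 higher and 16 lower, 117 and 10 were also called with equal weights and 102 and 5 among G2M cells. A comparison of G1 cells could not be run, since cluster 2 had 0 resistant cells in G1. No paired analysis was possible because coculture and monoculture had 1 library each, which leaves no pairs between them. Ratios between clusters were taken within each library and not tested, as the clusters were drawn on the same genes. At these depths genes under 20 CPM, CCNE1 and CCNE2 among them, were not called.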

Other observations

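Some genes higher in cluster 2 belonged to none of the lists, and the ones given here were picked after values were seen. PHF19, a Polycomb partner, was at 49.9 against 12.8 CPM in the coculture and 48.4 against 11.2 CPM in the monoculture (mean log2 ratio 1.95). KPNA2, a nuclear import receptor, was at 330 against 99.5 CPM and 416 against 115 CPM (1.79), and LMNB1, the B-type lamin, was at 69.6 against 22.2 CPM and 69.9 against 22.5 CPM (1.60). EZH2, the methyltransferase of Polycomb complex 2, had a ratio of 0.92, and STMN1, a microtubule destabilizer, one of 1.49. Cluster 2 was not the highest cluster for either in both libraries, since cluster 10 had 115 and 111 CPM of EZH2 against 95.6 and 96.6 CPM, and 507 against 496 CPM of STMN1 in the monoculture. Of the 190 higher genes 98 were in some list and 37 in the G2M list.

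Sensitive cells in cluster 2 numbered 34 in the coculture, all with mVenus UMIs and none with mCherry UMIs, and 32 of the 34 were in G2M. Their summed MGP level was 3676 CPM (3567 to 3787, exact Poisson interval), between the 811 CPM of sensitive G2M cells of cluster 7 and the 5464 CPM of resistant G2M cells of cluster 2. FABP7 was at 125 CPM and HMMR at 118 CPM in them. A doublet score above 0.25 was given to 10 of the 34 (29.4%), against 8 of 331 sensitive G2M cells of cluster 7 (2.42%), and the part of doublets in the MGP level was not tested.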
